A study of Homo sapiens with 10 samples.

Results

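PARP9, PARP10, PARP12, PARP14, DTX3L and RNF213 are genes that cells induce in response to interferon, and they were examined in NB4, a human cell line of acute promyelocytic leukemia. The group holds 6 of the 60603 genes in the deposited RNA-seq tables, all 6 of them among the 19975 genes listed as protein-coding. The members were chosen by name, with the authors' comparisons of these same libraries already known, and the fold changes and p-values behind that choice are not used here. RNF213 is listed in the tables under the symbol AC124319.1, with the stable identifier ENSG00000173821, which GENCODE release 44 assigns to RNF213.

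In the GSE1 knockdown experiment, NB4 cells were infected in 2 rounds with the lentiviral vector pLKO.1 puro, either empty (EV) or coding for shA1 or shB2, short hairpins that target GSE1, and were collected after 48 h. In the LSD1 inhibition experiment, cells with no vector named in their labels were exposed for 24 h to DMSO or to the LSD1 inhibitor MC2580 at 2 µM. Each of the 5 groups had 2 replicates, all from a single cell line. The tables hold 1 value of abundance per gene and experiment, the base mean, which is the average over all libraries of an experiment of the counts divided by size factors. A base mean therefore pools treated and control libraries, has no error, and says nothing about a difference between groups, so that no such difference was tested.

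Poly(ADP-ribose) polymerases (PARPs) are enzymes that transfer ADP-ribose from NAD+ to proteins or nucleic acids. Some build long chains of it, many attach a single unit, and a few, PARP9 among them, have little or no such activity on their own. Interferons signal through JAK kinases to transcription factors that bind the interferon-stimulated response element (ISRE) at the promoters of antiviral genes. PARP9 forms a complex with DTX3L, a ubiquitin ligase of the deltex family. PARP14 carries macrodomains, which bind or remove ADP-ribose. PARP10 and PARP12 attach single ADP-ribose units, and RNF213 is a very large ubiquitin ligase with an ATPase core that acts against intracellular microbes.

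The ISRE is described by a repeat of GAAA separated by any 2 bases, GAAANNGAAA, and this motif was searched for on both strands of the RefSeq promoter windows (GRCh38.p14), which reach from 250 bases before to 50 bases after a transcription start. Such a window was found for 5 of the 6 members, and 4 of these 5 held the motif in any of their windows. Counted by gene in the same way, 4.226% of the 14907 protein-coding genes with a window held it. Counted by window, 3.574% of all 35116 windows held it. The members are genes of the interferon response, so nothing is read from their share, and PARP9 and DTX3L have the same matched site. The 30 bases around each match are shown so that the matched letters and their surroundings can be read, with the motif in capitals, 5′ to 3′ on the strand of the gene. Since the stretches were picked by the search, their likeness at the motif is set by it and is no finding. TTTCNNTTTC is the same motif on the other strand.

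DTX3L (chr3:122564322-122564351, plus strand): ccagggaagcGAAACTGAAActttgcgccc
PARP9 (chr3:122564322-122564351, minus strand): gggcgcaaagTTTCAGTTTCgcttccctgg
PARP14 (chr3:122680800-122680829, plus strand): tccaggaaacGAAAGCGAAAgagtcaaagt
PARP12 (chr7:140062942-140062971, minus strand): ccggggccgcTTTCGGTTTCgtttcccgcc

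The DTX3L and PARP9 sequences are the same genomic site, read from opposite strands. In RefSeq the start of DTX3L lies 38 bases from a start of PARP9, with transcription running in opposite directions, and the motif begins 6 bases before the DTX3L start and 41 bases before this PARP9 start. PARP9 has a further annotated start, 446 bases from that of DTX3L, whose window held no match. In PARP14 the motif begins 29 bases before the start, and in PARP12 it begins 10 bases before it. The window of RNF213 held no match, which says only that these letters are not in that window. Among the PARP family, 14 genes had a window and 3 of them held the motif, which were PARP9, PARP12 and PARP14. None of the 9 interferon signalling genes with a window held it (0 of 9), against 4.226% of the 14907 protein-coding genes with a window. A match is a description of the sequence, and binding of a factor was not examined.

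By base mean, all members were above the median of the detected protein-coding genes in both experiments. Their base means in the GSE1 knockdown table ranged from 1944 for PARP10 to 6110.05 for RNF213, with a median of 2707, while the median of the protein-coding genes detected in that table was 409.0. In the LSD1 inhibition table they ranged from 1587 for PARP9 to 3615 for RNF213, with a median of 2140, against 396.0 for the protein-coding genes detected. The members were at percentiles 74.3 to 92.1 of the protein-coding genes in the first table and at percentiles 71.4 to 85.4 in the second. These percentiles are not corrected for transcript length. Per kb of the longest transcript, the members were at percentiles 64.6 to 82.0 in the first table and 57.3 to 81.7 in the second.

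RNF213 had the highest base mean of the 6 genes in both tables and the lowest level per kb of the longest transcript. Its base mean was 6110.05 in the GSE1 knockdown table and 3615 in the LSD1 inhibition table. The gene (chromosome 17, 80260852 to 80398794, plus strand) has a longest transcript of 21079 bases in 68 exons, and a longer transcript yields more sequenced fragments per molecule. Per kilobase of that transcript, the base mean of RNF213 was 289.9 in the GSE1 knockdown table, at percentile 64.6 of the protein-coding genes on the same scale. The corresponding level in the LSD1 inhibition table was 171.5 per kb, at percentile 57.3. These were the lowest levels per kb among the members, and its canonical transcript is the same one. Per kb of its shortest coding transcript, which has 699 bases, RNF213 was instead the highest of the members, at 8741 and 5172. The shortest coding transcripts of all members have 481 to 699 bases. Levels on this scale are thus divided by similar lengths, stay near the order of the base means and are hardly corrected for length. For RNF213 the 699 bases stand against 21079 in the canonical transcript, so that this scale says little about its level per molecule.

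PARP12 was 4 of 6 among the members by base mean in the GSE1 knockdown table and 2 of 6 in the LSD1 inhibition table. This gene (chromosome 7, 140023749 to 140062951, minus strand) has a longest transcript of 3021 bases, the shortest among the members. Its base means were 2452 in the GSE1 knockdown table and 2384 in the LSD1 inhibition table. Per kb of the longest transcript, which is also the canonical one, PARP12 was first of the members in both tables, at 811.5 and 789.3. On this scale its level per kb was 2.80 times that of RNF213 in the GSE1 knockdown table and 4.60 times in the LSD1 inhibition table. With the shortest coding transcripts, which hardly correct for length, these ratios turned to 0.524 and 0.862. PARP12, at 4582 and 4457 per kb, was then 3 of 6 and 2 of 6 among the members.

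**Figure D1:**
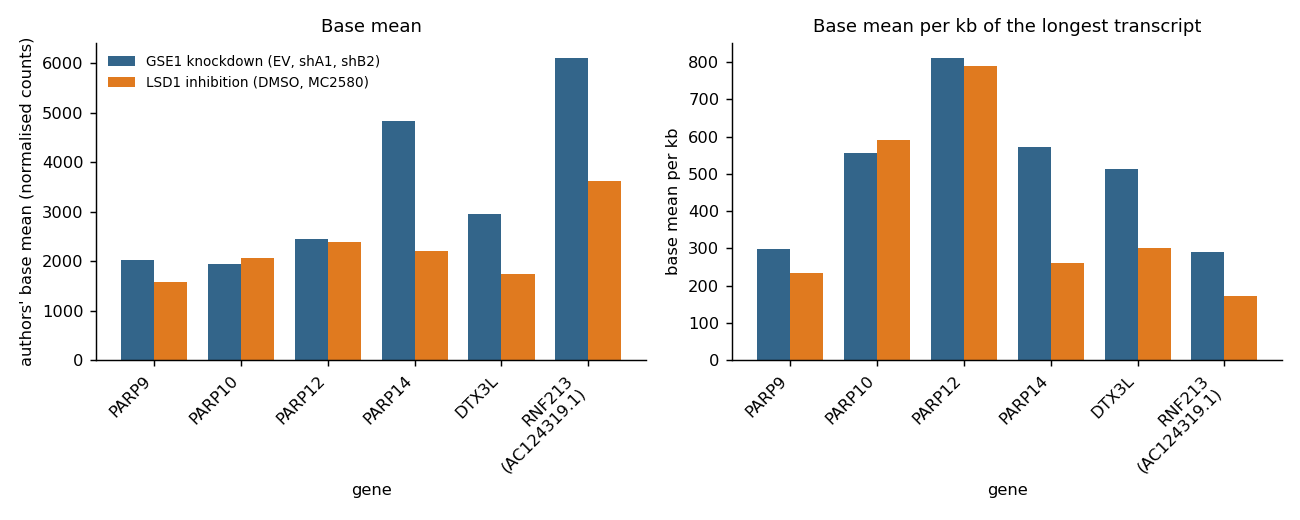
Bars give the authors' base mean of each member (left) and the same value divided by the length of the longest transcript in kb (right), for the GSE1 knockdown and the LSD1 inhibition experiment, without error bars because the tables hold a single pooled value. RNF213 is highest on the left at 6110.05 and 3615, and PARP12 is highest on the right at 811.5 and 789.3.

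PARP10, a mono-ADP-ribosyltransferase, had base means of 1944 in the GSE1 knockdown table and 2074 in the LSD1 inhibition table. Per kb of its transcript of 3505 bases these were levels of 554.7 and 591.7. By base mean, PARP10 (chromosome 8, 143977153 to 144012772, minus strand) was 6 of 6 among the members in the GSE1 knockdown table and 4 of 6 in the LSD1 inhibition table.

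PARP9 and DTX3L encode partners of the same complex. PARP9 (chromosome 3, 122527924 to 122564577, minus strand) had base means of 2021 in the GSE1 knockdown table and 1587 in the LSD1 inhibition table. For DTX3L (chromosome 3, 122564338 to 122575203, plus strand), the base means were 2962 and 1739. Which partner had the higher level per kb depended on the transcript taken for PARP9. With its longest transcript of 6769 bases, PARP9 was at 298.5 per kb in the GSE1 knockdown table, and DTX3L was 1.72 times higher at 513.5. With the canonical transcript of PARP9, which has 3045 bases, the level of PARP9 was 663.6 per kb, and that of DTX3L was 0.774 times as high. In the LSD1 inhibition table the ratio of DTX3L to PARP9 per kb was 1.29 with the longest and 0.578 with the canonical transcript. The order of these partners therefore could not be settled from the base means.

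PARP14 (chromosome 3, 122680839 to 122730840, plus strand) had the second highest base mean in the GSE1 knockdown table, 4832, and the third highest in the LSD1 inhibition table, 2206. Per kb of its longest transcript of 8437 bases the levels were 572.8 and 261.5. In the GSE1 knockdown table the level of PARP12 per kb was 1.42 times that of PARP14, and in the LSD1 inhibition table it was 3.02 times that of PARP14. With the shortest coding transcripts the ratio was 0.551 in the former and 1.17 in the latter. As a base mean is not accompanied by an error, no neighbours in these orders can be said to differ beyond their spread.

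PARP9, DTX3L and PARP14 lie together on chromosome 3, and PARP15, a further PARP gene, lies between DTX3L and PARP14. PARP15 had a base mean of 0.164 in the GSE1 knockdown table and of 1.39 in the LSD1 inhibition table, whereas DTX3L and PARP14 had at least 1739 in each. It begins 13.3 kb after the DTX3L start, and PARP14 begins 116.5 kb after it. The 200 kb on either side of the DTX3L start are reached by 9 protein-coding genes. Of those that are no member, KPNA1, which encodes a nuclear import receptor, had the highest base means, 3031 and 2045. These base means are not corrected for transcript length.

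**Figure D2:**
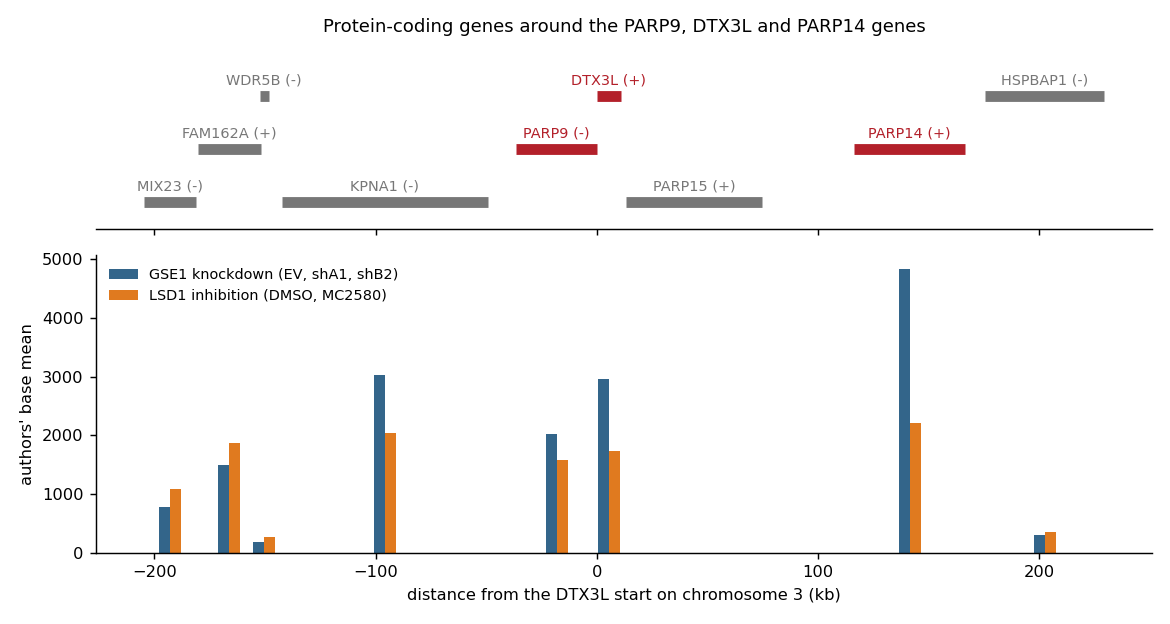
The upper part draws the protein-coding genes around DTX3L by their distance from its start in kb, with the members in red and the strand in parentheses, and the lower part gives the authors' base mean of each gene at its midpoint in the GSE1 knockdown and LSD1 inhibition experiments. PARP15 stands at 0.164 and 1.39 between DTX3L and PARP14.

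Counting may have mixed neighbouring genes at a few places, since the TruSeq RNA v2 kit does not keep the strand of a transcript. Annotated exons of PARP9 and DTX3L share 139 bases on opposite strands, which is 1.56% of the exonic bases of PARP9 and 2.41% of those of DTX3L. PARP10 shares 324 exonic bases, or 5.37% of its own, with GRINA, whose base means were 1203 and 1264, and 197 with SPATC1, whose base means were 1.13 and 0. RNF213 shares 1043 bases, or 3.65% of its own, with the antisense gene RNF213-AS1, whose base means were 81.2 and 93.3. PARP12 and PARP14 overlap no other gene in GENCODE release 44. The part of these overlaps in the base means was not tested.

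Within the PARP family of 17 genes, the PARP members were neither the most nor the least abundant per kb of the longest transcript. PARP1, the main nuclear PARP of the DNA damage response, was highest on this scale, at 4199 in the GSE1 knockdown table and 3067 in the LSD1 inhibition table, and PARP15 was lowest. By the same measure, PARP12 was 5 of 17 in the GSE1 knockdown table and 2 of 17 in the LSD1 inhibition table. In the same order PARP14 was 7 of 17 and then 10 of 17, PARP10 was 8 of 17 and then 5 of 17, and PARP9 was 13 of 17 and then 11 of 17. These ranks moved with the transcript. With the canonical transcript PARP9 was 7 of 17 in both tables, PARP12 was 5 and 3 of 17, PARP14 was 8 and 11 of 17, and PARP10 was 10 and 6 of 17. With the shortest coding transcript PARP14 was 1 of 17 in the GSE1 knockdown table and 6 of 17 in the LSD1 inhibition table, and PARP1 was 3 and 2 of 17. On that scale PARP14 was divided by 581 bases, against 8437 in its longest transcript. The 13 other PARP genes had a median base mean of 1642 in the GSE1 knockdown table and of 1544 in the LSD1 inhibition table. ZC3HAV1 encodes the zinc finger antiviral protein and is also induced by interferon. Its base means were 8341 and 4384, higher than those of the members in both tables. Per kb of the longest transcript, ZC3HAV1 was at 1162 in the GSE1 knockdown table. In the LSD1 inhibition table it was at 610.9, below PARP12 at 789.3.

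**Figure D3:**
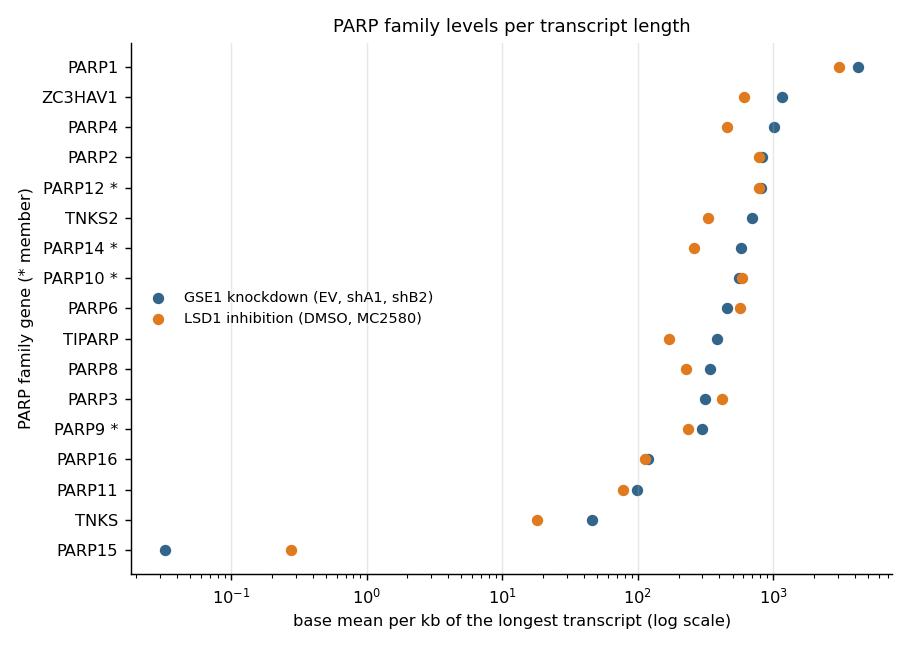
Points give the base mean per kb of the longest transcript for the 17 PARP family genes on a log axis, in the GSE1 knockdown and the LSD1 inhibition experiment, with the members marked by an asterisk. PARP1 is highest at 4199 and 3067 and PARP15 lowest, and PARP12 stands at 811.5 and 789.3.

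DTX3L was the most abundant of the 5 deltex genes by base mean in both tables. DTX2, which followed it, had base means of 1201 in the GSE1 knockdown table and 1171 in the LSD1 inhibition table. DTX4 had base means of 8.28 and 13.6, and DTX1 and DTX3 were listed at 0 in the GSE1 knockdown table and at 0.331 and 0.702 in the LSD1 inhibition table. Per kb of the longest transcript, DTX2 was below DTX3L in the GSE1 knockdown table, at 433.6 against 513.5, and above it in the LSD1 inhibition table, at 423.0 against 301.6.

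Of the 6 genes for the removal and reading of ADP-ribose, 5 had base means above 500 in both tables and MACROD2 was listed at 0 and at 0.246. PARG, which degrades ADP-ribose chains, had base means of 1504 and 1355. ADPRHL2, which removes ADP-ribose from serine, was the highest of the 6, with 2201 and 3104.

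Transcripts of the interferon signalling genes were present for all 10 genes of the list reported here. Their base means ranged from 503.4 for IRF9 to 20217 for TYK2 in the GSE1 knockdown table and from 472.7 for IFNAR2 to 20596 for TYK2 in the LSD1 inhibition table. STAT2, a transcription factor of the pathway, had base means of 3765 and 2401, and JAK1 of 4304 and 2070. The receptor chains IFNAR1 and IFNAR2 of the type I interferon receptor had base means of 1457 and 816.2 in the GSE1 knockdown table.

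The tables were normalised separately, so that the levels of the 2 experiments can be set side by side only as shares. Summed over all genes, the base means came to 40543130 in the GSE1 knockdown table and to 41201112 in the LSD1 inhibition table. In parts per 1000000 of these sums, the 6 members together made up 501.2 in the GSE1 knockdown table and 330.3 in the LSD1 inhibition table. PARP14 took 119.2 parts in the former and 53.6 in the latter, a ratio of 2.23. The corresponding ratio was 1.73 for DTX3L, 1.72 for RNF213, 1.29 for PARP9, 1.04 for PARP12 and 0.953 for PARP10.

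A ratio above 1.5 was found for 3 of the 6 members, PARP14, DTX3L and RNF213. The background was 13.6% of the 10916 protein-coding genes that reached a base mean of 50 in each table. Since the members were chosen on comparisons of these libraries, nothing is read from that count or from the median ratio of the members. On the log2 scale the median ratio was 0.58 for the members and 0.09 for all these genes. Of the 12 other PARP genes that reached this level, 6 also had a ratio above 1.5, from PARP8 at 1.53 to TNKS at 2.59, and their median log2 ratio was 0.55. For the 10 interferon signalling genes the median log2 ratio was 0.45, with 3 genes above a ratio of 1.5. The experiments differ in vector, time, treatment and share of treated libraries, and the parts of these in the ratios cannot be told apart.

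**Figure D4:**
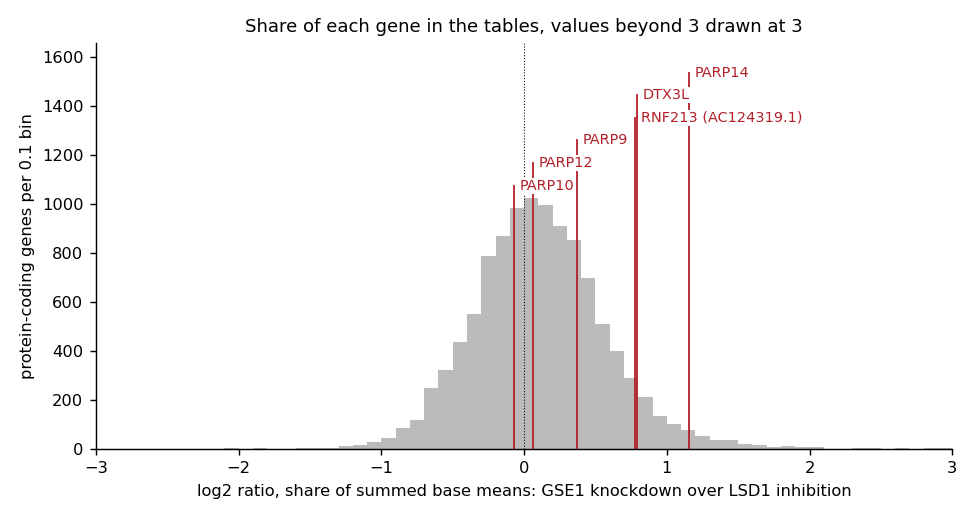
Grey bars count the 10916 protein-coding genes that reached a base mean of 50 in each table by the log2 ratio of their share in the GSE1 knockdown table to that in the LSD1 inhibition table, and red lines mark the members. PARP14 stands farthest to the right with a ratio of 2.23, and PARP10, with 0.953, is the only member to the left of 0.

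The identity of the cells and the targeted genes were also read from the base means. Myeloperoxidase (MPO), the hallmark of promyelocytes, had base means of 506765 and 824818, and PRTN3, AZU1, CTSG and CD33 ranged from 723.2 to 6435 over both tables, while ELANE was at 1.10 and 3.87. Markers of other cells (CD3E, HBB, PPBP and COL1A1) were at most 14.4. GSE1 had base means of 2963 and 4441 and KDM1A, which encodes LSD1, of 7648 and 6285. Because the libraries are pooled in these values, they do not check the knockdown.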

How the data were processed

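mRNA-seq libraries of NB4 cells were made by the authors with the TruSeq RNA v2 kit. According to the submitters' processing notes, bcl2fastq 2, FastQC 0.11.5, STAR 2.7, RSEM and DESeq2 were used with hg38; versions of RSEM and DESeq2 and the annotation release are not given in the sources used here. The deposited signal values used here are base means, which the authors computed as averages over the 6 libraries of the GSE1 knockdown or the 4 of the LSD1 inhibition of counts divided by DESeq2 size factors. The knockdown table gives this column for each hairpin, with a largest difference of 0. The remaining columns hold the authors' log2 fold changes, standard errors, Wald statistics and p-values, and were not used. With no value per library, depth, replicate errors and the planned count-based tests could not be had.

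Percentiles were taken over protein-coding genes whose base mean was above 0 (17337 and 17091 genes). Levels per kb used the longest transcript in GENCODE release 44, which matched 60261 of 60603 identifiers and 19887 of 19975 protein-coding genes; this release may differ from that of the authors. Promoter windows came from RefSeq. Calculations used Python 3.11.15 and pandas 2.3.3. Only the percentile function and the motif search on a given strand were tested on simulated data. The members and gene lists were chosen with earlier results of these data known. The genes named are the members, GSE1, KDM1A and genes of the fixed lists; the genes near DTX3L and those overlapping members were named by position. Some genes of the marker and signalling lists are not reported here.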

Additional observations from a re-analysis of the deposited data

How the results depend on the processing

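The percentiles of the members and the order per kb of those between PARP12 and RNF213 depend on choices that the base means cannot settle. Taking percentiles over all genes with a base mean above 0 moved the members' median percentile from 80.3 to 89.7 in the GSE1 knockdown table and from 76.9 to 87.6 in the LSD1 inhibition table, and taking them over protein-coding genes that reached a base mean of 10 moved it to 72.9 and 68.6. The median level per kb, 534.1 and 281.5 with the longest transcript, was 591.4 and 411.4 with the canonical transcript, an alternative chosen after seeing the data, and 4447 and 4055 with the shortest coding transcript, which has 481 to 699 bases in the members. RNF213 kept the lowest and PARP12 the highest level per kb of the members with the canonical transcript. With the shortest coding transcript, which hardly corrects for length, RNF213 was instead the highest, at 8741 and 5172. PARP12, at 4582 and 4457, was then 3 of 6 in the GSE1 knockdown table and 2 of 6 in the LSD1 inhibition table. The alternatives for count-based tests (DESeq2, no filter on low counts, leaving out replicates) were not run, as they need values per library. No paired analysis was possible because the tables hold no value per replicate.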
